A study of Homo sapiens with 6 samples.

Results

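Messenger RNAs of the ATF4 program and of the unfolded protein response were examined in T98G cells, an established glioblastoma line. The cells had CBX8 knocked out, without or with its re-expression from a vector. The set holds 39 genes of the 57133 gene symbols in the deposited table. Its members were chosen by name from these pathways, with earlier results of these data known. They form 2 arms, 19 genes of ATF4 and amino-acid supply and 20 genes of endoplasmic reticulum (ER) sensing, folding and disposal.

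CBX8 is a chromodomain subunit of Polycomb repressive complex 1, which keeps genes silent on chromatin that carries methylated H3K27. CBX8 was knocked out in T98G by transfection of Cas9 with an sgCBX8 guide and puromycin selection, and whether the knockout line is a single clone is not stated. Stable lines were then made from it with lentiviral rtTA and a doxycycline-inducible TetO-FUW vector, selected with puromycin and hygromycin. The CBX8 KO group (n = 3 libraries) carried the empty vector and the WT CBX8 group (n = 3 libraries) carried the vector with V5-tagged full-length CBX8. Both groups came from the knockout line, carried rtTA and received doxycycline at 1 µg/ml for 72 h. The labels call the second group wild type in genotype, whereas their titles describe re-expression, and the titles were followed. Parental and sgControl cells were not analysed here. A difference due to CBX8 and a difference between the 2 separately selected lines cannot be told apart, and it is not stated whether the 3 libraries of a group came from separate cultures.

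Cells that run short of amino acids, or that gather unfolded protein in the ER, phosphorylate the initiation factor eIF2. Translation then slows in general while the transcription factor ATF4 is made, and ATF4 turns on genes for amino-acid synthesis, amino-acid import and tRNA charging. The ER has further sensors, IRE1 and ATF6, which act through spliced XBP1 and cleaved ATF6 on genes for chaperones and for disposal of misfolded protein. Gene counts measure the total mRNA of each gene, so ATF4 protein, eIF2 phosphorylation and XBP1 splicing were not measured.

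The known target sequences of these factors are shown for the members that carry them, and not every member of an arm does. The promoters were taken from RefSeq on GRCh38.p14, from 250 bases before to 50 bases after the start of each gene, and 34 of the 39 members matched an entry. The ER stress element (ERSE), searched as CCAAT, 9 free bases and CCACG, was found on either strand in 22 of 27305 promoters (0.0806%) and in 6 of 19 in the ER arm (31.6%). The windows below are written 5′ to 3′ on the strand of the match, with the fixed letters of the element in capitals.
HSPA5, chr9:125241386-125241414, minus strand: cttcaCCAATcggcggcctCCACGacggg
HSP90B1, chr12:103930211-103930239, plus strand: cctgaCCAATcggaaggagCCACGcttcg
XBP1, chr22:28800598-28800626, minus strand: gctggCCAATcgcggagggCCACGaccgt
CALR, chr19:12938379-12938407, minus strand: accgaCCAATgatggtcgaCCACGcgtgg
CANX, chr5:179698773-179698801, plus strand: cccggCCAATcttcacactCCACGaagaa
CRELD2, chr22:49918549-49918577, minus strand: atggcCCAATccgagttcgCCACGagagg
HSP90B1 held a further match on the other strand. The promoters were placed by RefSeq starts, and some GENCODE transcripts start further upstream. On GENCODE, the windows of HSP90B1 and CANX lie in untranslated exons of some transcripts of these genes, that of CRELD2 lies inside the gene but in no exon, and those of HSPA5, XBP1 and CALR lie outside the genes.

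The shorter ERSE-II element, searched as ATTGG, 1 free base and CCACG on both strands, was found in 15 of the 27305 promoters (0.0549%) and in 3 of the 19 of the ER arm (15.8%), HYOU1, SDF2L1 and HERPUD1. The ATF4 response element, searched as TGATGNAA on both strands, was found in 1003 promoters (3.67%), in 3 of 15 of the ATF4 arm (20%) and in 1 of 19 of the ER arm, HERPUD1. The capitals mark the element in each window.
HERPUD1 (ERSE-II), chr16:56932016-56932044, plus strand: cggacgccgATTGGGCCACGttgggagag
SDF2L1 (ERSE-II), chr22:21642105-21642133, minus strand: agggttttgATTGGTCCACGcttccgagg
CHAC1 (ATF4 element), chr15:40953252-40953279, minus strand: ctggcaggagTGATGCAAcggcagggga
ASNS (ATF4 element), chr7:97872459-97872486, minus strand: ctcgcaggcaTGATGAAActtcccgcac
AARS (ATF4 element), chr16:70289676-70289703, plus strand: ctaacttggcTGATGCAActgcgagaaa
The windows of CHAC1, ASNS and AARS also lie in untranslated exons of some GENCODE transcripts, and those of HERPUD1 and SDF2L1 lie outside the genes. None of the 15 ATF4-arm promoters held either ER element. An XBP1 element, TGACGTGG on either strand, was found in 217 promoters (0.795%) and in 1 of the 19 of the ER arm, HYOU1, where it overlaps an ERSE-II match. These matches describe the letters and do not show binding, and a promoter without a match lacks only these letters in this window.

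CBX8 itself gave 96, 104 and 83 counts without the WT vector and 30372, 31408 and 27791 counts with it, in the direction of the labels. It took 0.334% to 0.368% of all counts with WT CBX8, a level not compared here with parental or sgControl cells. Of the 57133 symbols, 14461 were tested with edgeR's quasi-likelihood test and Benjamini-Hochberg adjustment, in which 959 genes (6.63%) were lower and 901 (6.23%) higher upon re-expression at an adjusted p under 0.05, or 12.9% in either direction. Total counts per library lay between 7950190 and 8659796. Levels are given as CPM, the count of a gene scaled to a common normalized library size, and differences as log2 of WT CBX8 over CBX8 KO. Pairs of libraries within a group were not copies of each other, since their chi-square over genes was 2.03 to 3.07 times its degrees of freedom. Mitochondrial transcripts took 6.85% to 7.96% of counts in CBX8 KO and 5.96% to 6.99% with WT CBX8, and cytosolic ribosomal protein transcripts 3.37% to 3.72% over all libraries. Of the glioblastoma line markers, VIM, CD44, FN1 and TGFBI each had at least 4288 counts in every library, while NES had at most 4 counts. The summed glioblastoma list lay at 9262 to 9425 CPM in CBX8 KO and 8885 to 9340 CPM with WT CBX8. The 5 astrocyte markers summed to 25.5 to 28.3 CPM and to 18.1 to 23.2 CPM with WT CBX8, with S100B and AQP4 at 0 in every library. SLC1A3, which makes up most of that sum, fell by 0.45 on the log2 scale (edgeR adjusted p = 0.00722), whereas GFAP had a higher value in every WT CBX8 library (log2 fold change 0.68, edgeR adjusted p = 0.131). The 5 epithelial markers, almost all from KRT8 and KRT18, summed to 245 to 255 CPM and to 277 to 306 CPM. The neuron list summed to 11.3 to 13.0 CPM and to 13.9 to 16.7 CPM, and the leukocyte and endothelial lists stayed at or under 6.40 CPM, with STMN2, GAP43 and KDR at 0 in every library. The part of these differences in the results that follow was not tested. In bulk RNA, fewer cells that express a gene and less RNA per cell cannot be told apart.

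Upon re-expression, 5 of the 18 tested genes of the ATF4 arm fell (27.8%, against 6.63% of all genes tested) and none passed the test in the other direction (against 6.23%). ATF4, the translation repressor EIF4EBP1, the serine enzyme PSAT1 and the tRNA synthetases WARS and GARS fell, by 0.23 to 0.33 on the log2 scale. Of the 20 genes of the ER arm only CANX, the membrane lectin chaperone calnexin, fell (5%), and none rose. At an unadjusted p under 0.05, 8 genes of the ATF4 arm were lower and 1 was higher, and in the ER arm 2 were lower and 2 higher. For this cutoff, here and in the lists below, the share over all genes was not counted, so these counts cannot be read against it. That share is at least the 12.9% called in either direction after adjustment. Over both arms 6 of 38 tested members passed, against 12.9% of all genes, and the groups did not overlap for 13, against 28.9% of all genes. DESeq2 and limma voom also called none higher in either arm. The median log2 fold change was -0.13 over the ATF4 arm, with 14 genes negative and 4 positive, and 0.000033 over the ER arm, with 10 of each sign. Over all genes tested the median was 0.0049. A difference between the arms themselves was not tested.

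**Figure D1:**
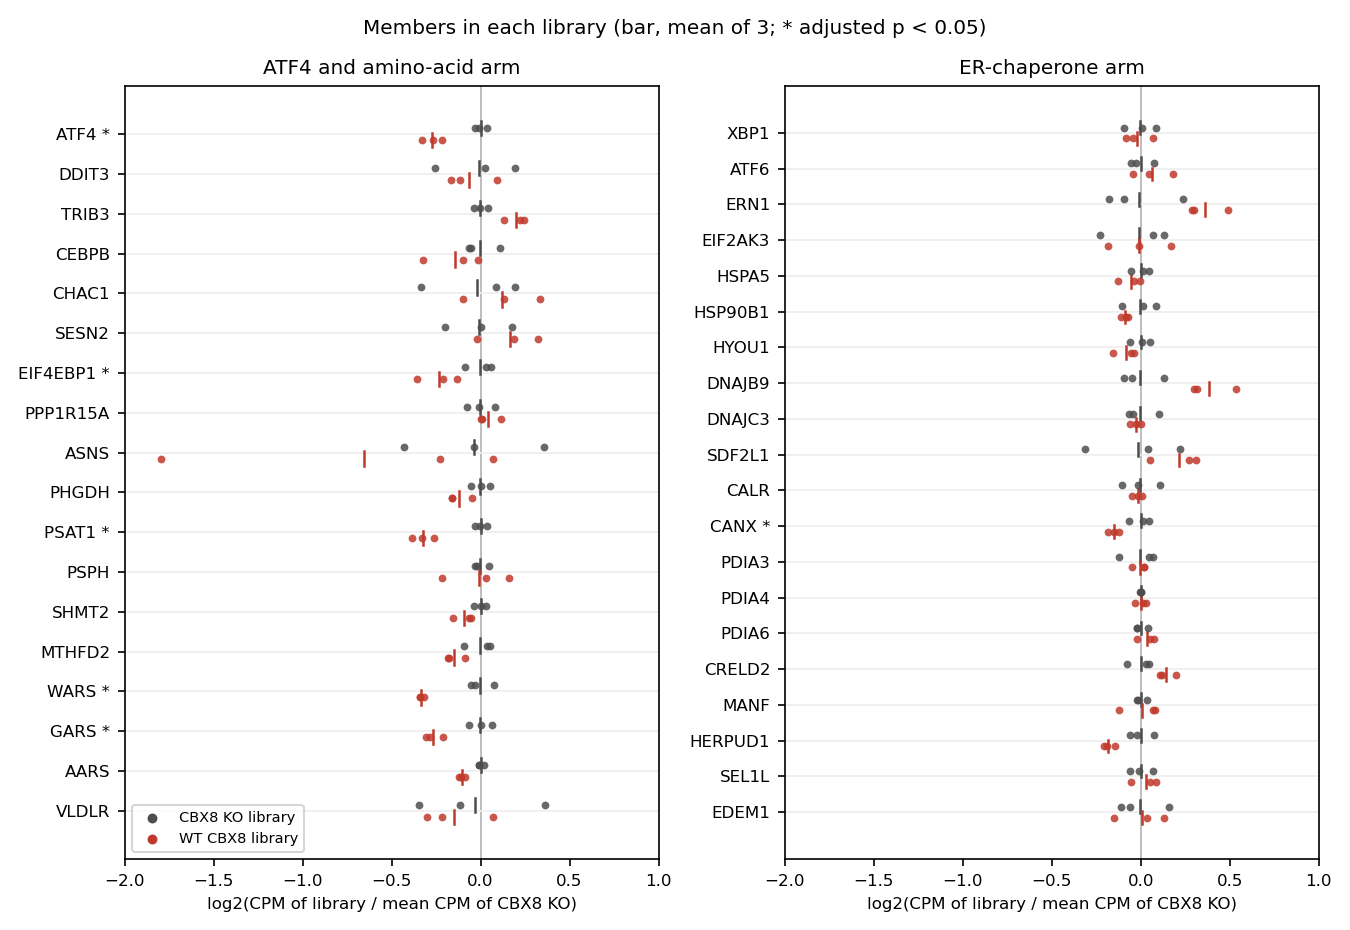
The level of each tested member in every library, as log2 of its CPM over the mean CPM of the 3 CBX8 KO libraries (x axis), for the ATF4 and amino-acid arm (left) and the ER-chaperone arm (right). Grey points are CBX8 KO libraries, red points WT CBX8 libraries, vertical bars the mean of the 3 log2 values, and asterisks mark the 6 genes with an adjusted p under 0.05. The red points of ATF4, EIF4EBP1, PSAT1, WARS, GARS and CANX all lie left of the grey points. Among genes without an asterisk, those of SHMT2, AARS and HERPUD1 also lie left, whereas those of DNAJB9, ERN1, TRIB3 and CRELD2 lie right.

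ATF4, which encodes the transcription factor (ENSG00000128272, chromosome 22 from 39519695 to 39522683 in hg38, plus strand, 3 exons in its canonical transcript), had 452, 468 and 447 CPM in the CBX8 KO libraries. It had 391.5, 378 and 363 CPM with WT CBX8. Every WT CBX8 library lay below every CBX8 KO library, as was so for 14.4% of all genes tested. The mean was 456 ± 10.9 CPM (SD, n = 3) in CBX8 KO and 378 ± 14.3 CPM (SD, n = 3) with WT CBX8, a log2 fold change of -0.27 (standard error [SE] 0.048, adjusted p = 0.000276, edgeR's quasi-likelihood test). A processed copy of the whole ATF4 transcript lies on chromosome 17 at 96.7% identity, and its own row, ATF4P3, held at most 4 counts per library. The counting program and its treatment of such copies are not given in the sources used here.

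EIF4EBP1, which encodes the 4E-BP1 repressor of cap-dependent translation (chromosome 8 from 38030534 to 38060365, plus strand), had 77.1, 83.6 and 85.4 CPM in CBX8 KO and 74.9, 70.8 and 63.9 CPM with WT CBX8. The groups did not overlap, but the highest WT CBX8 library was only just under the lowest CBX8 KO library. The log2 fold change was -0.23 (SE 0.064, adjusted p = 0.0157, edgeR's quasi-likelihood test). The call was lost with DESeq2 (adjusted p = 0.0518), with library size scaling (adjusted p = 0.0806) and in 4 of the 6 edgeR fits that left out 1 library, with adjusted p between 0.00697 and 0.102 over those 6. The 4 were the fits without CBX8 KO replicate 2 (0.079), CBX8 KO replicate 3 (0.0624), WT CBX8 replicate 2 (0.0538) and WT CBX8 replicate 3 (0.102).

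The other regulators of the arm did not pass the test, and they did not share a sign. TRIB3, a pseudokinase that restrains ATF4 signalling, had 42.7, 43.6 and 45.1 CPM in CBX8 KO and 51.1, 47.9 and 51.9 CPM with WT CBX8, so that all libraries with WT CBX8 were above those without. Its log2 fold change was 0.20 (edgeR adjusted p = 0.0666), opposite in sign to that of ATF4. DDIT3, which encodes CHOP, the stress factor linked to cell death, had 14.8 to 20.1 CPM in CBX8 KO and 15.7 to 18.7 CPM with WT CBX8, with a log2 fold change of -0.06 and overlapping groups. Exons of other annotated genes cover 39.6% of the exonic bases of DDIT3, most of it by MARS1 on the opposite strand, so that some of its reads may belong elsewhere. CEBPB, a bZIP partner of ATF4, had a log2 fold change of -0.14 (edgeR adjusted p = 0.259). PPP1R15A, the phosphatase subunit GADD34 that reverses eIF2 phosphorylation, had 0.04, and the leucine sensor SESN2 had 0.17 at 9.34 to 13.4 CPM. CHAC1, a glutathione-degrading enzyme, had only 19 to 32 counts per library and a log2 fold change of 0.13 with an SE of 0.25. Of the regulators, ATF4 and EIF4EBP1 therefore fell, and 6 of 8 did not pass the test. The call of EIF4EBP1 was lost in 8 of 19 alternatives.

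Among the amino-acid enzymes, PSAT1 fell while the enzymes on either side of it in the serine pathway did not pass the test. PSAT1, the aminotransferase of serine synthesis (chromosome 9 from 78297125 to 78330093, plus strand), had 131, 134 and 138 CPM in CBX8 KO and 112, 107 and 103 CPM with WT CBX8. The groups were well apart, with a log2 fold change of -0.32 (SE 0.053, adjusted p = 0.000105, edgeR's quasi-likelihood test), a fall of 20% in the level. PHGDH, the dehydrogenase that opens the pathway, had 111, 116 and 120 CPM and then 104, 112 and 104 CPM, a log2 fold change of -0.12 (95% interval -0.23 to -0.0077, edgeR adjusted p = 0.164). PSPH, the phosphatase that ends it, had 22.4 to 23.6 CPM and 19.6 to 25.5 CPM, and its log2 fold change of -0.0028 had an interval from -0.22 to 0.21. The difference between PSAT1 and its neighbours was not tested.

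The mitochondrial folate enzymes lay on the same side with smaller values. SHMT2, which splits serine into glycine and a folate-bound carbon, had 163, 160 and 156 CPM in CBX8 KO and 154, 153 and 143 CPM with WT CBX8, without overlap (log2 fold change -0.09, edgeR adjusted p = 0.273). MTHFD2, the next enzyme, had 138, 151 and 153 CPM and then 138, 130 and 129 CPM, with overlap by the first library of each group. Its log2 fold change of -0.15 missed the threshold (edgeR adjusted p = 0.0672). It passed without the low-count filter (0.0457), and without CBX8 KO replicate 1 (0.0227) or WT CBX8 replicate 1 (0.0441).

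ASNS and ALDH1L2 had few counts in every library. ASNS, asparagine synthetase, had 21, 17 and 12 counts in CBX8 KO and 15, 19 and 5 with WT CBX8, and its log2 fold change of -0.44 had an SE of 0.37. On the annotation, 49.3% of its exonic bases are shared with an overlapping transcript of the same strand, so reads of this gene may have been assigned elsewhere. ALDH1L2, a mitochondrial folate dehydrogenase, had 0 to 3 counts per library and was not tested. VLDLR, a lipoprotein receptor known as an ATF4 target, had 19 to 33 counts and a log2 fold change of -0.14 (SE 0.26). Changes of the size seen for PSAT1 were not detectable at the counts of ASNS, CHAC1 and VLDLR.

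The 3 tRNA synthetases of the arm all separated without overlap, below CBX8 KO, as 14.4% of all genes tested did. Of the 3, 2 passed the test. WARS, which charges tryptophan tRNA (WARS1 in GENCODE, chromosome 14 from 100333790 to 100376805, minus strand), had 142, 153 and 140 CPM in CBX8 KO and 114, 115 and 117 CPM with WT CBX8. Of its exonic bases, 10.6% overlap genes on the opposite strand. Its log2 fold change was -0.33 (SE 0.053, adjusted p = 5.82e-05, edgeR's quasi-likelihood test). GARS, which charges glycine tRNA (GARS1 in GENCODE, chromosome 7 from 30580533 to 30634033, plus strand), had 239.8, 230 and 219 CPM and then 185, 189 and 198 CPM, a log2 fold change of -0.27 (SE 0.05, adjusted p = 0.000545, edgeR's quasi-likelihood test). For both genes the WT CBX8 libraries formed a tight group under all CBX8 KO libraries. AARS, which charges alanine tRNA, had 238, 238 and 242 CPM and then 222, 225 and 220.0 CPM. Its libraries were also apart, but the log2 fold change of -0.11 did not pass the test (edgeR adjusted p = 0.151). AARS holds the ATF4 element shown above, and no match was found in the promoters of ATF4, PSAT1, WARS and GARS, while EIF4EBP1 had no promoter entry.

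**Figure D2:**
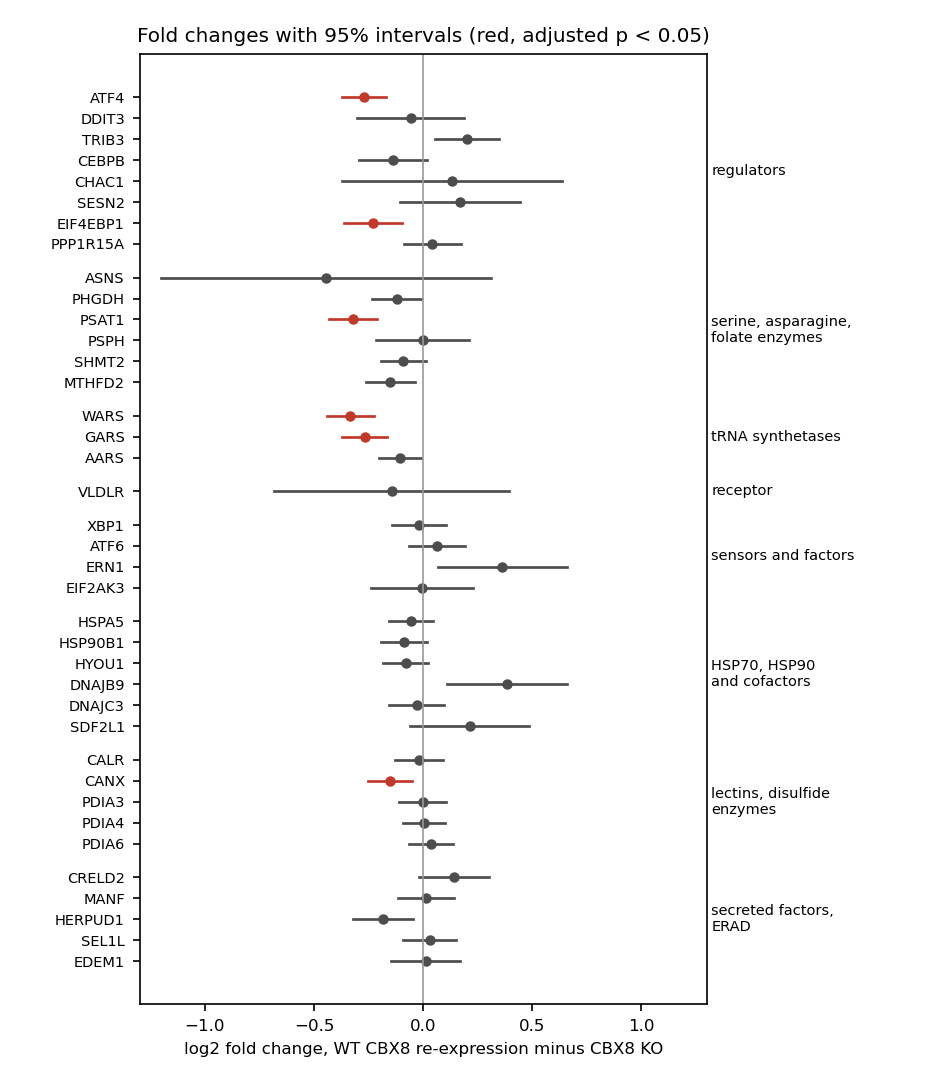
Log2 fold changes of the 38 tested members (x axis, WT CBX8 re-expression minus CBX8 KO) with 95% intervals from the edgeR fit, grouped by role. Red marks the 6 genes with an adjusted p under 0.05, all left of 0, and the widest intervals belong to ASNS, CHAC1 and VLDLR, the 3 members with a CBX8 KO mean under 5 CPM.

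In the ER arm the sensors and their factors did not pass the test. XBP1, the factor made active by IRE1 splicing, had 86.3, 91.1 and 80.4 CPM in CBX8 KO and 90.0, 83.5 and 81.1 CPM with WT CBX8, and the groups overlapped (log2 fold change -0.02, 95% interval -0.14 to 0.11). ATF6, the membrane-bound factor, had a log2 fold change of 0.06, and EIF2AK3, which encodes the eIF2 kinase PERK, of -0.0046. ERN1, which encodes IRE1, was low, at 9.97, 7.49 and 7.93 CPM in CBX8 KO and 10.3, 10.4 and 11.9 CPM with WT CBX8. All of its WT CBX8 libraries were above those of CBX8 KO, but the log2 fold change of 0.36 had an SE of 0.14 and did not pass (edgeR adjusted p = 0.101). It passed with library size scaling (adjusted p = 0.05 when rounded) and without CBX8 KO replicate 1, its highest CBX8 KO library (adjusted p = 0.0473).

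Apart from CANX, the abundant chaperones and disulfide isomerases did not pass the test, and their groups overlapped. HSPA5, the ER HSP70 known as BiP and the usual readout of the unfolded protein response, had 649.6, 697 and 681 CPM in CBX8 KO and 658, 675 and 618 CPM with WT CBX8. The groups overlapped, with a log2 fold change of -0.06 and a 95% interval from -0.16 to 0.05 (edgeR adjusted p = 0.533). HSP90B1, the ER HSP90 known as GRP94, had a log2 fold change of -0.09 at 956 to 1097 CPM, and HYOU1, an exchange factor of BiP, of -0.08 at 263 to 304 CPM. CALR, the soluble lectin calreticulin, had -0.02 at 1281 to 1487 CPM. The disulfide isomerases PDIA3, PDIA4 and PDIA6 had -0.0021, 0.0021 and 0.04, and 25.2% of the exonic bases of PDIA6 overlap other genes. Over these 7 genes, which had a CBX8 KO mean over 200 CPM, the 95% intervals lay within -0.19 and 0.14 on the log2 scale. PDIA3 has a near-identical copy over 52.1% of its transcript on chromosome 1, whose row PDIA3P1 had 230 to 334 counts and a log2 fold change of 0.06.

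CANX was the exception among the abundant genes, though its call was not stable. CANX (chromosome 5 from 179678628 to 179731641, plus strand) had 1932, 1888 and 1786 CPM in CBX8 KO and 1647, 1715 and 1682 CPM with WT CBX8. The groups did not overlap, with a mean of 1869 ± 75.1 CPM (SD, n = 3) against 1681 ± 33.96 CPM (SD, n = 3). The log2 fold change was -0.15 (SE 0.05, adjusted p = 0.0428, edgeR's quasi-likelihood test). It was lost in 11 of 19 alternatives, among them upper quartile scaling (adjusted p = 0.0635), library size scaling (0.197) and the replicate number as a block (0.107). It was also lost without CBX8 KO replicate 1 (0.149), CBX8 KO replicate 2 (0.16), WT CBX8 replicate 1 (0.102), WT CBX8 replicate 2 (0.0632) or WT CBX8 replicate 3 (0.0793). CALR, the soluble partner of CANX in folding of glycoproteins, did not pass the test.

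The smaller cofactors and disposal genes held values of both signs, and none passed the test. DNAJB9, the BiP cochaperone ERdj4 and a known target of spliced XBP1, had 8.71, 9.86 and 8.45 CPM in CBX8 KO and 13.0, 11.1 and 11.2 CPM with WT CBX8. All libraries with WT CBX8 were higher, with a log2 fold change of 0.38 (SE 0.13, edgeR adjusted p = 0.059), and it passed with library size scaling (0.0301) and with a correction for GC content and length chosen after seeing the data (0.0212). HERPUD1, a membrane protein of ER-associated degradation, had 54.8, 60.0 and 56.3 CPM and then 49.95, 49.4 and 51.5 CPM. Its groups were apart in the other direction (log2 fold change -0.18, edgeR adjusted p = 0.0752). CRELD2, a secreted ER stress protein, had 36.1 to 39.3 CPM and then 41.1 to 43.6 CPM, without overlap (0.14, edgeR adjusted p = 0.261). SDF2L1, a BiP cofactor at 9.59 to 14.8 CPM, had 0.21, and the cochaperone DNAJC3 had -0.03. The secreted factor MANF, the degradation adaptor SEL1L and the mannosidase-like EDEM1 had 0.01, 0.03 and 0.01. Of the 9 ER-arm genes with an ERSE or ERSE-II match, CANX alone passed the test. Over all genes tested 12.9% passed in either direction, so this count does not set the genes with a match apart.

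The members spanned a wide range of levels. Per kilobase of canonical transcript, the scale on which genes can be compared, CALR had 725 CPM per kb in CBX8 KO (99.5th percentile of genes tested), followed by CANX (380), HSP90B1 (372) and ATF4 (321, 98.7th percentile). At the low end of the tested members were ERN1 (1.07), ASNS (0.867, with the overlap given above) and VLDLR (0.331, 1.43rd percentile). ALDH1L2, which was not tested, was lower still (0.0168). Percentiles are by the mean over the libraries of both groups. The standard error of a log2 fold change was 0.047 to 0.055 for the 16 tested members with a CBX8 KO mean over 100 CPM, and 0.11 to 0.37 for the 9 under 20 CPM. ERN1 and DNAJB9 are among those 9, so the largest positive values of the ER arm come from its least abundant genes.

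**Figure D3:**
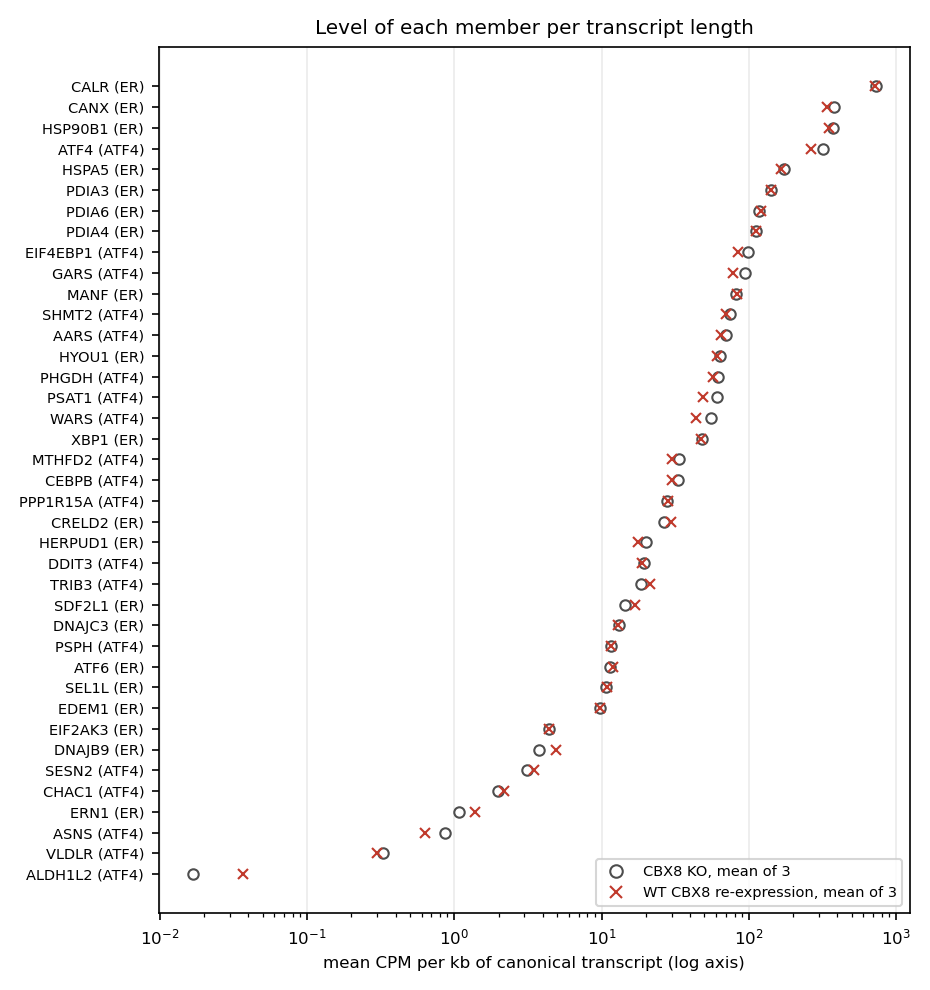
Mean level of each of the 39 members in CPM per kb of canonical transcript (x axis, log scale), with open circles for CBX8 KO and crosses for WT CBX8 (mean of 3 libraries each) and the arm in brackets. Levels run from 725 for CALR in CBX8 KO to under 0.1 for ALDH1L2, and circle and cross lie close together for most members. ATF4 stands among the chaperones, with 321 in CBX8 KO and 266 with WT CBX8.

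Summed over members, the ATF4 arm had 1913, 1966 and 1936 CPM in CBX8 KO and 1735, 1706 and 1672 CPM with WT CBX8. Every library with WT CBX8 was thus below every CBX8 KO library, and the sum is weighted to its abundant genes, ATF4 above all. The ER arm summed to 7219, 7015 and 6653 CPM and to 6624, 6787 and 6597 CPM. Its groups overlapped, because the third CBX8 KO library lay below the second WT CBX8 library. The 39 genes together took 0.834% to 0.884% of all counts.

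**Figure D4:**
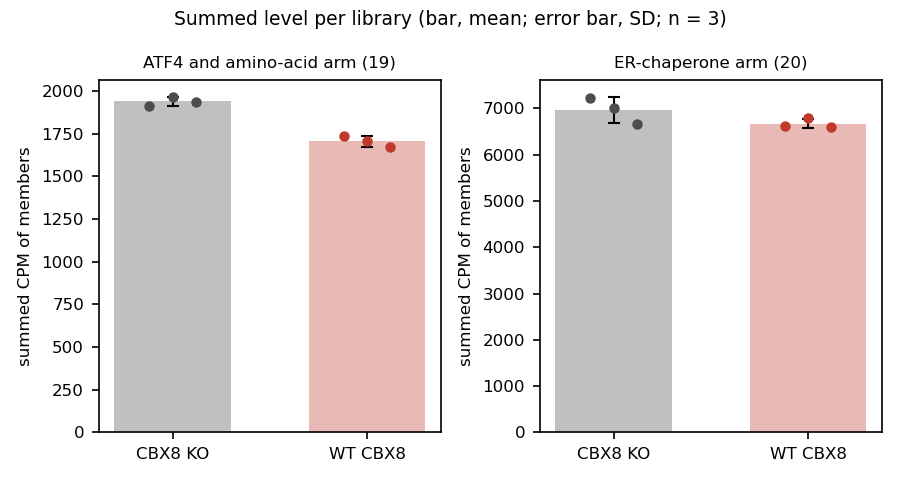
Summed CPM of the 19 genes of the ATF4 arm (left) and the 20 genes of the ER arm (right) in each library, both axes from 0. Points are libraries, bars are means and error bars are SD (n = 3). The ATF4 arm lay between 1913 and 1966 CPM in CBX8 KO and between 1672 and 1735 CPM with WT CBX8, whereas the ER arm overlapped between groups.

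Other genes of the same pathways were grouped by function. The other cytosolic tRNA synthetases, with 3 scaffold proteins of their complex, had 7 of 19 tested genes lower (36.8%) and none higher in edgeR, with a median log2 fold change of -0.13. All 7 were among the 16 tested synthetases (43.8%), and the scaffold proteins AIMP1, AIMP2 and EEF1E1 did not pass the test. At an unadjusted p under 0.05, 10 were lower and none higher, and without the low-count filter 1 was higher. VARS, named outside the naming rule as the gene that filter removed, had 5, 2 and 2 counts in CBX8 KO. It had 20, 18 and 0 counts with WT CBX8. Near-identical copies of VARS lie on alternate contigs of hg38, so its counts are uncertain. LARS, TARS and YARS, which charge leucine, threonine and tyrosine tRNA, had the lowest values, at -0.22, -0.21 and -0.20 (edgeR adjusted p = 0.00247, 0.00324 and 0.0084). In LARS the CBX8 KO libraries had 215, 201 and 202 CPM and the WT CBX8 libraries 177, 179 and 172 CPM, without overlap. The glycine cleavage and folate genes outside the members had 4 of 14 lower (28.6%) and none higher, with a median of -0.09 and 6 lower and none higher at an unadjusted p under 0.05. The lowest were GCSH, a glycine cleavage subunit (-0.48, edgeR adjusted p = 0.00419), MTRR, which reactivates methionine synthase (-0.28, 0.00855), and MTHFD1L, a mitochondrial formate enzyme (-0.27, 0.0157). GCSH has near-identical copies on chromosomes 1 and 5, so its counts are uncertain.

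The other known ATF4 targets moved in both directions. Of 34 tested, 8 were lower (23.5%) and 3 higher (8.82%), with a median of -0.09. DDIT4, the stress-induced inhibitor of mTORC1 known as REDD1, had 73.3, 82.3 and 82.4 CPM in CBX8 KO and 52.2, 44.9 and 40.5 CPM with WT CBX8. The gap between groups was wide, and its log2 fold change of -0.79 (SE 0.076, edgeR adjusted p = 2.8e-08) exceeded that of any called member. CTH, the cystathionine lyase that makes cysteine, fell by 0.65 (edgeR adjusted p = 0.00366), and SQSTM1, the autophagy receptor p62, by 0.56 (edgeR adjusted p = 3.07e-09). MRNIP on the opposite strand covers 21.0% of the exonic bases of SQSTM1, so some reads may belong elsewhere. MRNIP itself had 3612, 4008 and 3653 counts in CBX8 KO and 2688, 2946 and 2753 with WT CBX8. FAM129A, a stress-induced protein known as Niban, rose by 0.41 (edgeR adjusted p = 0.000114), GADD45A, a growth arrest gene, by 0.35 (0.0226) and STC2, a secreted glycoprotein, by 0.17 (0.0174). Outside the naming rule, and named after their values were seen, the other 5 genes called lower were SLC7A11 (-0.32), TXNRD1 (-0.27), SLC1A5 (-0.23), SLC7A5 (-0.21) and SLC3A2 (-0.20). Of the 9 tested amino-acid transporter genes of this list, those 4 SLC genes passed the test and SLC6A9 (-0.16), SLC7A1 (-0.09), SLC38A2 (-0.07), SLC43A1 (0.08) and SLC1A4 (0.19, higher in every WT CBX8 library) did not. SLC7A11, TXNRD1 and SQSTM1 are known targets of the oxidative stress factor NRF2 as well. SLC3A2 encodes the shared chain that pairs with SLC7A5 to import leucine and with SLC7A11 to import cystine.

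The remaining lists lay nearer to the shares over all genes. Of 19 genes for eIF2, its exchange factor, its kinases and phosphatases and related initiation factors, 2 were lower (10.5%), EIF2A (-0.19), an initiation factor that is not a subunit of eIF2, and the eIF2 subunit EIF2S3 (-0.15), and none was higher in edgeR, against 2 at an unadjusted p under 0.05 and 1 by edgeR's likelihood ratio test. Of 37 other ER folding genes, 2 were lower and 2 higher (5.41% each). The oxidase ERO1A (-0.23) and the prolyl isomerase FKBP7 (-0.20) fell, and the sulfhydryl oxidase QSOX1 (0.39, edgeR adjusted p = 8.87e-06) and the collagen chaperone SERPINH1 (0.24, edgeR adjusted p = 0.00144) rose. None of 23 other genes of ER-associated degradation passed the test in edgeR, with 1 lower at an unadjusted p under 0.05, none by DESeq2 or limma voom, and 1 higher with library size scaling. Of 25 genes of ER translocation, 3 were lower (12%), TRAM1 (-0.35, edgeR adjusted p = 1.77e-05), SRPRB (-0.21) and SSR3 (-0.18), and 1 was higher, TRAM2 (0.26, edgeR adjusted p = 0.000964). TRAM1 and TRAM2 encode related membrane proteins next to the translocon. Of 17 ER stress factors and proteases, WFS1, the ER membrane protein wolframin, fell (-0.24, edgeR adjusted p = 0.0306), and the membrane-bound factor CREB3L2, named after its values were seen because its groups overlapped, rose (0.18, 5.88% each).

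**Figure D5:**
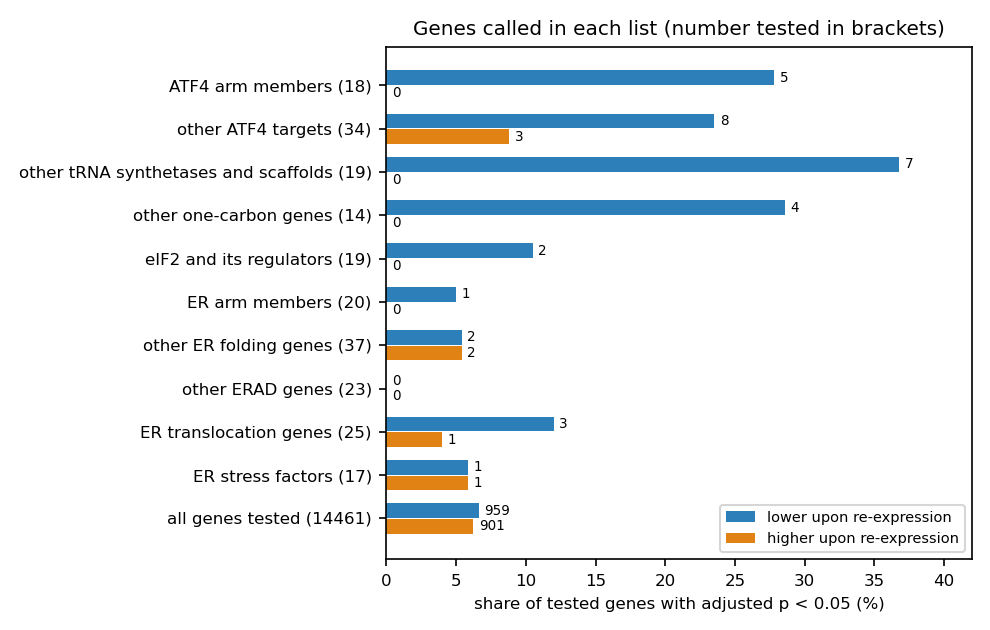
Share of tested genes with an adjusted p under 0.05 (x axis, %) in each list, blue for lower and orange for higher upon re-expression, with the number called beside each bar and the number tested in brackets. Lower calls reach 27.8% in the ATF4 arm and 36.8% in the list of other tRNA synthetases and their scaffold proteins, against 5% in the ER arm and 6.63% over all genes tested.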

How the data were processed

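The authors trimmed 100 bp paired-end poly(A) reads with Trimmomatic, aligned them to hg38 with HiSat2 and deposited unnormalized counts per gene symbol (versions, counting program, annotation and strand setting are not given in the sources used here). Totals were 7950190 to 8659796 counts per library, and precision from depth covers counting error only. In R 4.3.3, genes kept by filterByExpr of edgeR 4.0.16 (14461) were scaled by TMM and tested with glmQLFit and glmQLFTest at their defaults, condition as the only term, two-sided, with Benjamini-Hochberg adjustment over all of them and a threshold of 0.05, after the EdgeR analysis in the study's methods. Standard errors are the absolute log2 fold change over the square root of F. The coefficient of variation beyond counting error was 4.70%. The fit was tested on simulated counts. Symbols were matched to GENCODE release 44, and copies were sought with minimap2 2.31 (at least 95% identity over 50% of a transcript).

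Members and lists were chosen with earlier results of these data known. Genes named are CBX8, all 39 members and, of each other list, up to the 3 lowest and 3 highest called genes whose groups do not overlap and whose average log2 CPM is 1 or more. Alternatives were other scalings (RLE, upper quartile, library size), 2 other filters, the likelihood ratio test, DESeq2 1.42.0, limma 3.58.1 voom, glmQLFit with legacy set to FALSE, an adjusted p under 0.01, a 1.2-fold minimum, the replicate number as a block, each library left out, and, chosen after seeing the data, a correction for GC content and length (both known for 87.2% of tested genes).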

Additional observations from a re-analysis of the deposited data

How the results depend on the processing

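The falls of ATF4, PSAT1, WARS and GARS passed the threshold in 18 of 19 alternatives and were lost only with a 1.2-fold minimum. That minimum left 0 lower members in the ATF4 arm and 0 in the ER arm. In the other lists it left 2 lower and 0 higher genes (27 and 7 as reported), and over all genes 171 and 194. With library size scaling, under which the median of all genes was 0.06 and the share of calls that were lower fell from 51.6% to 29.7%, 1 gene of the ATF4 arm (TRIB3, adjusted p = 0.0185) and 2 of the ER arm were higher, none of the ER arm was lower (0), its median was 0.056, and the other lists had 12 lower and 13 higher. At an adjusted p under 0.01 the other lists had 16 lower and 4 higher, with 0 lower in the ER arm, as with upper quartile scaling. Over all genes that threshold called 569 lower and 489 higher. The correction for GC content and length gave 8 lower in the ATF4 arm (with CEBPB, PHGDH and AARS). In the ER arm 1 was higher, HYOU1 was lower (edgeR adjusted p = 0.0325) and CANX was lost (0.0514). Over all genes this correction called 1283 lower and 851 higher, against 959 and 901 as reported. Except for the stricter thresholds, the cause was not tested.

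Libraries with the same number did not deviate together (correlations -0.14, -0.16 and -0.08 over 10393 genes), so the numbers were not taken to pair them. A fit with a replicate block gave 766 lower and 739 higher genes, with 5 of the ATF4 arm and 0 of the ER arm among the lower, and 20 lower and 6 higher in the other lists.

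With 1 library left out, lower genes ranged from 4 to 6 in the ATF4 arm and 0 to 1 in the ER arm, and higher genes from 0 to 0 and 0 to 1. The other lists had 14 (without CBX8 KO replicate 2) to 27 lower, with 17 without WT CBX8 replicate 2, and 5 to 8 higher. The ATF4 arm median log2 fold change ranged from -0.167 to -0.103 and the ER arm median log2 fold change from -0.035 to 0.030, and that of CBX8 from 8.15 to 8.26.

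Reversals concern members that did not pass the test. PDIA4 was -0.0012 with RLE scaling, -0.0012 with DESeq2, -0.011 without the filter and -0.012 after the GC and length correction. EDEM1 was -0.0011 without the filter. PSPH, EIF2AK3 and PDIA3 were 0.0098, 0.0081 and 0.011 with upper quartile scaling, 0.053, 0.051 and 0.053 with library size, and 0.020, 0.014 and 0.027 after the correction, in which PPP1R15A was -0.022. XBP1, DNAJC3 and CALR were 0.037, 0.026 and 0.038 with library size. With 1 library left out, log2 fold changes that changed sign ranged from -0.17 to 0.044 in DDIT3, -0.0084 to 0.23 in CHAC1, -0.093 to 0.096 in PSPH, -0.29 to 0.085 in VLDLR, -0.066 to 0.025 in XBP1, -0.0012 to 0.11 in ATF6, -0.11 to 0.076 in EIF2AK3, -0.063 to 0.025 in DNAJC3, -0.069 to 0.038 in CALR, -0.060 to 0.031 in PDIA3, -0.010 to 0.017 in PDIA4, -0.024 to 0.073 in MANF, -0.0030 to 0.066 in SEL1L and -0.055 to 0.095 in EDEM1.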
